A study of Mus musculus with 10 samples.

Results

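The Frizzled family and its co-receptors receive Wnt signals at the cell surface, and the values below follow the RNA of 10 of these genes in mouse colon tumours and the tissue beside them. The genes are Fzd1 to Fzd8, which encode Frizzled receptors, and Lrp5 and Lrp6, which encode the co-receptors. They were taken by gene symbol, and all 10 were found among the 24525 genes of the deposited table. The libraries came from 5 tumours and 5 samples of adjacent colon of male mice of 1 brood (strain C57BL/6 in the sample labels, C57BL/6N in the growth protocol), 7 weeks old and 18 to 20 g at the start. Tumours and adjacent tissue share the same treatment, an injection of the mutagen azoxymethane (AOM) at 12.5 mg/kg and then 3 cycles of dextran sulfate sodium (DSS), an agent that injures the colonic lining, each of 5 days of 2% DSS and 16 days of tap water. Tissue was taken 10 weeks after AOM. Of 15 mice, 12 were treated and 3 were not, and no library analysed here carries the label of an untreated mouse, so adjacent tissue is tissue of treated mice. One mouse is given in the source label of every library, while the protocol speaks of several, so it is unclear from them which samples come from 1 animal, and p-values measure the spread between these samples.

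Wnt proteins bind the cysteine-rich outer domain of a Frizzled together with LRP5 or LRP6. The bound pair recruits Dishevelled, beta-catenin escapes destruction, and target genes of TCF/LEF factors are switched on; in the colon this signal keeps the crypt base dividing. Frizzleds of the planar cell polarity branch act through Dishevelled without beta-catenin. The family falls into groups of related sequence: Fzd1, Fzd2 and Fzd7; Fzd5 and Fzd8; Fzd3 and Fzd6; Fzd4; and Fzd9 and Fzd10.

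Promoter sequence was at hand for 4 of the 10 genes. Those of Fzd5, Fzd7 and Fzd1 are shown, for these reasons. Fzd5 had the largest change on the log2 scale, Fzd7 rose with the deposited scaling and Fzd1 was the most abundant Frizzled of every tumour. Fzd5 and Fzd7 both lie on chromosome 1, with starts 5256 kb apart. Each line gives 250 bases directly before the RefSeq start (GRCm38.p6), on the strand of the gene, with every match to the TCF/LEF core CTTTG, or to its reverse complement CAAAG, in capitals. The windows are chr1:64737751-64738000 on the minus strand for Fzd5, chr1:59481897-59482146 on the plus strand for Fzd7 and chr5:4758217-4758466 on the minus strand for Fzd1.
Fzd5: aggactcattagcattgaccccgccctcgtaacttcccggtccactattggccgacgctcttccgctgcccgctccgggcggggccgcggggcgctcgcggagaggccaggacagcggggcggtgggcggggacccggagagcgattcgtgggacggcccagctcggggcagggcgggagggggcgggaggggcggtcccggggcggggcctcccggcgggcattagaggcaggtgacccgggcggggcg
Fzd7: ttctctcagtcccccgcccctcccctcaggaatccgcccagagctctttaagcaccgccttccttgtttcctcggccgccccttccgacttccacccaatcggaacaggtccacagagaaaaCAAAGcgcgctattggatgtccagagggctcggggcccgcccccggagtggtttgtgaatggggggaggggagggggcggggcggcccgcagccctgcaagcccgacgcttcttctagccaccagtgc
Fzd1: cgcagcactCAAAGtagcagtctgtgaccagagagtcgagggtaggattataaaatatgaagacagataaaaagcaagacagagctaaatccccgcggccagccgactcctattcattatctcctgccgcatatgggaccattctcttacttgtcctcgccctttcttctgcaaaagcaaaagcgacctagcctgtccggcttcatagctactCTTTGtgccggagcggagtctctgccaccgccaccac
No match lay in the Fzd5 window, 1 lay in that of Fzd7, beginning 128 bases before the start, and 2 lay in that of Fzd1, beginning 241 and 37 bases before it. Of 32851 RefSeq promoter windows of the same length, 48.6% held the core on either strand, so its presence or absence is a common feature. Base composition differed more. The Fzd5 window was 76.4% G and C with 32 CpG sites, more CpG sites than 95.4% of all windows; that of Fzd7 was 65.2% with 17, and that of Fzd1 was 51.2% with 12, against a median of 52.4% and 6 over all windows. The Fzd1 window also held the letters TATAAA, found on either strand in 12.4% of all windows, while the Fzd5 and Fzd7 windows held 9 and 6 matches to the GC box GGGCGG or CCGCCC. The remaining window, not printed, is that of Fzd4, which also rose with the deposited scaling. Like the Fzd5 window it held no match to the core, with 7 matches to the GC box. It was 72.8% G and C with 25 CpG sites, more than 89.3% of all windows.

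Within the receptor set, with the deposited scaling, the tumours had less Fzd5 and Fzd8, and more Fzd2, Fzd4, Fzd6 and Fzd7, than adjacent tissue. They also had more Lrp5 and slightly less Lrp6. The difference in Fzd4 was not kept under the other scalings tried, and that in Fzd7 not under all of them. The largest change on the log2 scale tested below was the fall of Fzd5, the most abundant Frizzled of every adjacent sample. It fell to 6.33 ± 2.22 FPKM in tumours, against 21.3 ± 2.61 FPKM in adjacent tissue (SD, n = 5 each). By ratio of mean FPKM the scarce Fzd3 changed more, at 4.13 for tumours over adjacent tissue. For Fzd5 the ratio of adjacent tissue over tumours was 3.37. FPKM counts fragments per kilobase of transcript scaled to the library total, as the authors computed it, so levels may be compared between genes. Comparisons between libraries rest on this scaling, and values under other scalings are given below. These are bulk samples, in which fewer cells of a type and less RNA per cell cannot be told apart.

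Changes were tested with limma on log2(FPKM + 1) over 13016 genes, those whose mean over all libraries reached 1 FPKM, and "rose" and "fell" are used where the Benjamini-Hochberg adjusted p was under 0.05. Of the 10 genes 9 entered this test, 5 rose and 3 fell. Across all tested genes 57.2% rose and 19.3% fell, 76.5% in all, so 8 calls among 9 members (88.9%) are close to the background. The median change was 0.52 on the log2 scale over the 9 members and 0.35 over all tested genes. With each library's median subtracted 4 members rose and 3 fell, against 4486 and 4329 of the 13016 tested genes (67.7% in all). With quantile normalization 3 members rose and 3 fell, against 4759 and 3934 of the tested genes (66.8% in all). All 5 tumours lay above all 5 adjacent samples for 5 of the tested members (46.5% of all tested genes) and below them for 2 (14.3% of all tested genes), which makes 77.8% of the tested members, against 60.9% of all tested genes.

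**Figure D1:**
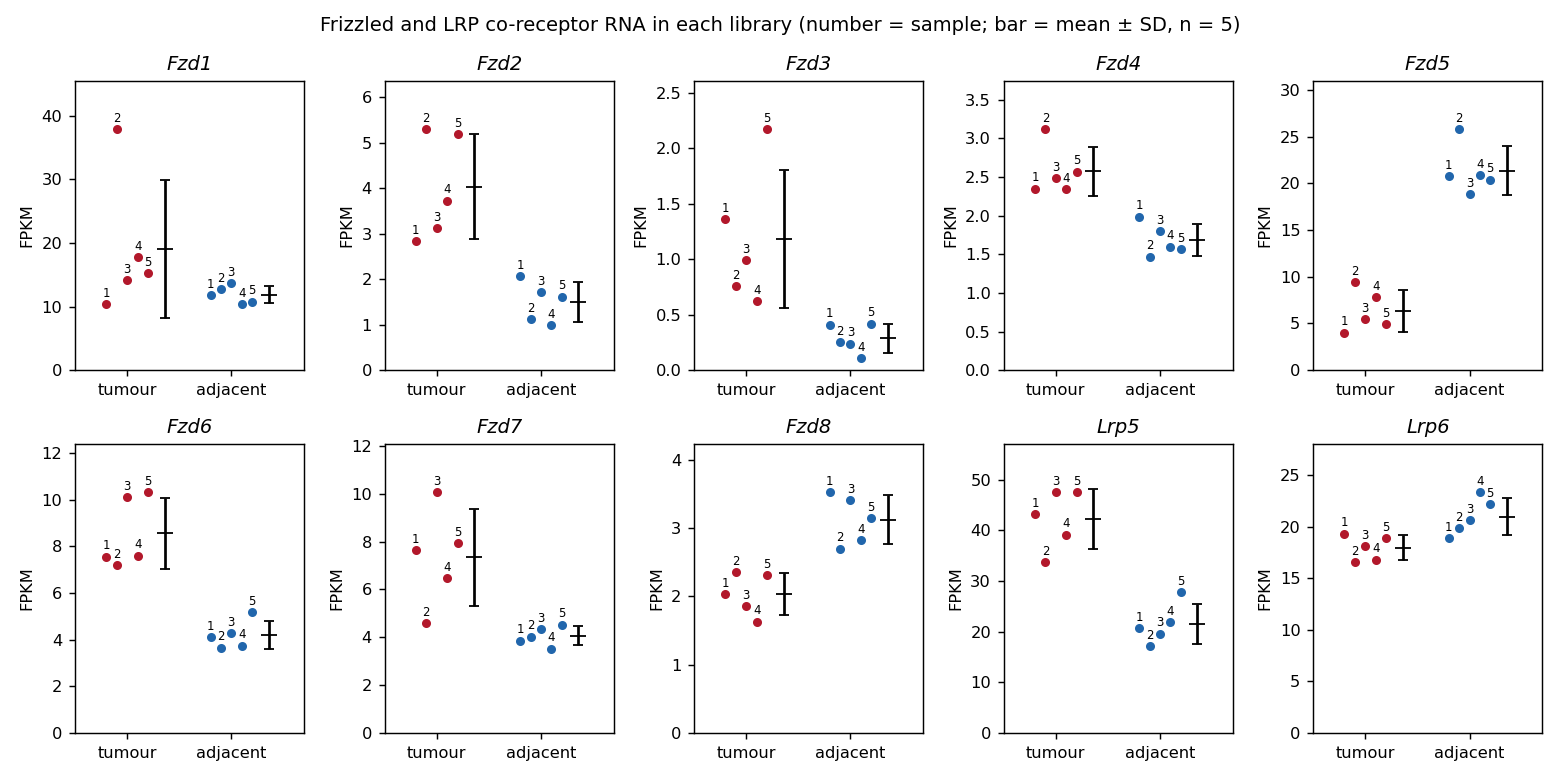
FPKM of each gene in every library, tumours left and adjacent samples right, with the sample number beside each point and the mean ± SD as a bar. Groups are apart for Fzd2 to Fzd8 and Lrp5, while Fzd1 and Lrp6 overlap; tumour 2 stands alone at 37.88 FPKM for Fzd1.

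Fzd5 and Fzd8, the pair of close relatives, were the Frizzleds that fell. In mouse intestine Fzd5 is a receptor of epithelial cells and is needed for Paneth cells to mature. Fzd5 (chromosome 1, 64730558 to 64737751, minus strand, GRCm38) had 4.03, 9.42, 5.47, 7.80 and 4.94 FPKM in tumours 1 to 5, against 20.80, 25.78, 18.87, 20.85 and 20.40 FPKM in adjacent samples 1 to 5. Tumours 2 and 4 kept the most, and even tumour 2, at 9.42 FPKM, lay well below the lowest adjacent sample. The log2 change was -1.65 (SE 0.18, limma adjusted p = 3.22e-05), and 3.23% of all tested genes had a smaller, that is more negative, change. Exons of Fzd5 share 1233 bases with the antisense gene Gm38058, and the kit does not mark strand, so reads of the shared bases cannot be told apart. Fzd8, on chromosome 18, had 2.03, 2.36, 1.86, 1.63 and 2.31 FPKM in tumours 1 to 5, against 3.53, 2.70, 3.41, 2.82 and 3.15 FPKM in adjacent samples 1 to 5. Its levels were low in both groups without overlap, and the log2 change was -0.44 (SE 0.10, limma adjusted p = 0.00252). Both falls were larger with medians subtracted, at -1.98 for Fzd5 and -0.77 for Fzd8, and with quantile normalization, at -1.97 and -0.92.

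Of the relatives Fzd1, Fzd2 and Fzd7, Fzd2 and Fzd7 rose and Fzd1 did not pass the test. Fzd2, which with Fzd1 is needed for closure of the palate in the mouse (chromosome 11, 102604396 to 102608058, plus strand), had 2.84, 5.30, 3.13, 3.73 and 5.19 FPKM in tumours 1 to 5, against 2.07, 1.12, 1.71, 1.00 and 1.62 FPKM in adjacent samples 1 to 5. Every tumour lay above every adjacent sample, and Fzd2 rose by 1.00 on the log2 scale (SE 0.18, limma adjusted p = 0.000428), a ratio of mean FPKM of 2.68. Fzd7, the receptor through which Lgr5-positive stem cells of the mouse intestine receive Wnt (chromosome 1, 59482424 to 59486955, plus strand), had 7.66, 4.58, 10.08, 6.47 and 7.94 FPKM in tumours 1 to 5, against 3.86, 4.03, 4.35, 3.53 and 4.53 FPKM in adjacent samples 1 to 5. Tumour 2, at 4.58 FPKM, lay just above the highest adjacent sample, and the other 4 tumours lay well above it. Fzd7 rose by 0.69 on the log2 scale (SE 0.16, limma adjusted p = 0.00245); the rise was 0.36 with medians subtracted (adjusted p = 0.0491) and its call was lost with quantile normalization (0.23, adjusted p = 0.225).

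Fzd1 (chromosome 5, 4753839 to 4758035, minus strand) was the most abundant Frizzled of every tumour. It had 10.39, 37.88, 14.18, 17.74 and 15.29 FPKM in tumours 1 to 5, against 11.76, 12.70, 13.65, 10.34 and 10.80 FPKM in adjacent samples 1 to 5. Tumour 1 lay within the adjacent range, tumours 3, 4 and 5 above it, and tumour 2 far above all. The log2 change of 0.52 did not pass (95% interval -0.09 to 1.12, limma adjusted p = 0.105). It was 0.24 without tumour 2 (adjusted p = 0.128) and passed without tumour 1, at 0.69 (adjusted p = 0.0317).

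Fzd3 and Fzd6 act mainly in planar cell polarity, Fzd3 in the guidance of axons and Fzd6 in the patterning of hair in the mouse. Fzd6 (chromosome 15, 39006034 to 39038188, plus strand) had 7.56, 7.18, 10.12, 7.60 and 10.33 FPKM in tumours 1 to 5, against 4.12, 3.66, 4.29, 3.74 and 5.18 FPKM in adjacent samples 1 to 5. Tumours 3 and 5 were highest, the groups did not overlap, and Fzd6 rose by 0.87 on the log2 scale (SE 0.12, limma adjusted p = 0.000102), with 0.54 and 0.42 under the other scalings. Its exons share 152 bases with the antisense gene Gm26704. Fzd3 (chromosome 14, 65192449 to 65262463, minus strand) was the scarcest of the 8 receptors in every library. It had 1.36, 0.76, 0.99, 0.62 and 2.17 FPKM in tumours 1 to 5, against 0.41, 0.25, 0.24, 0.11 and 0.42 FPKM in adjacent samples 1 to 5. Every tumour lay above every adjacent sample, with tumour 5 highest. Its mean of 0.733 FPKM kept it out of the test, so it counts in neither direction. With the filter lowered to 0.1 FPKM its log2 change was 0.72 (SE 0.17, limma adjusted p = 0.00261); the ratio of mean FPKM was 4.13.

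Fzd4, the receptor for Norrin in the growth of retinal vessels (chromosome 7, 89404355 to 89413134, plus strand), had 2.35, 3.12, 2.49, 2.34 and 2.57 FPKM in tumours 1 to 5, against 1.99, 1.47, 1.80, 1.60 and 1.57 FPKM in adjacent samples 1 to 5. The groups did not overlap but lay close together, and the log2 change of 0.41 (SE 0.10, limma adjusted p = 0.00263) was near the median of all tested genes. Its direction rests on the scaling: it was 0.08 after subtraction of library medians (adjusted p = 0.469) and -0.081 after quantile normalization (adjusted p = 0.468).

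The co-receptors diverged. Lrp5, known for its role in bone mass and in retinal vessels (chromosome 19, 3584828 to 3686564, minus strand), had 43.21, 33.66, 47.53, 39.17 and 47.58 FPKM in tumours 1 to 5, against 20.64, 17.16, 19.59, 21.92 and 27.74 FPKM in adjacent samples 1 to 5. The lowest tumour lay above the highest adjacent sample. Lrp5 rose by 0.95 on the log2 scale (SE 0.13, limma adjusted p = 9.10e-05), and by 0.62 and 0.80 under the other scalings. Lrp6, the co-receptor needed for embryonic development in the mouse (chromosome 6, 134446476 to 134566965, minus strand), had 19.34, 16.60, 18.12, 16.83 and 18.89 FPKM in tumours 1 to 5, against 18.94, 19.88, 20.63, 23.39 and 22.17 FPKM in adjacent samples 1 to 5. Tumour 1 lay above adjacent sample 1 and the groups overlapped there. Lrp6 fell by 0.21 on the log2 scale (SE 0.07, limma adjusted p = 0.0212), and by 0.54 and 0.45 under the other scalings. With the deposited scaling the call was lost without adjacent sample 4 (adjusted p = 0.0569), without tumour 4 (0.0516) and without tumours 2 and 4 together (0.11).

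**Figure D2:**
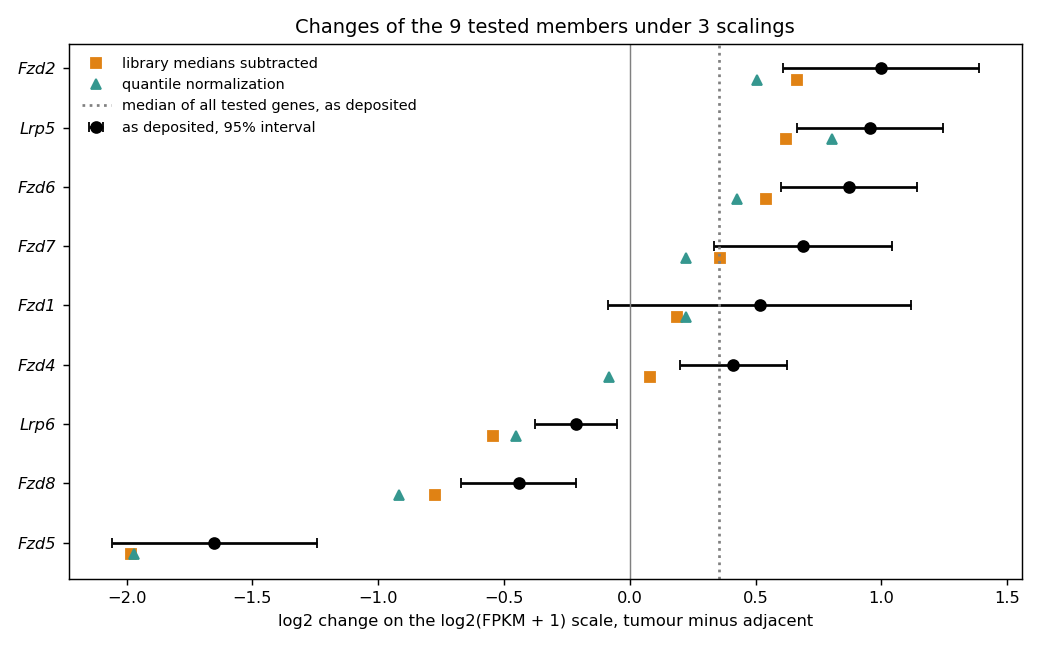
Log2 change, tumour minus adjacent, of the 9 tested members, with 95% intervals for the deposited scaling and the values after subtraction of library medians (squares) and quantile normalization (triangles). Fzd5 lies near -1.65 to -1.98 under all 3 scalings, while Fzd4 moves from 0.41 to 0.08 and -0.081; the dotted line marks the median of all tested genes at 0.35.

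Ratios of related genes within a library do not depend on a factor that scales the whole library, apart from the added 1 FPKM. Quantile normalization can change them and was not applied to them. The groups were compared for 6 such ratios. Lrp5 over Lrp6, on the plain FPKM scale, was 2.23, 2.03, 2.62, 2.33 and 2.52 in tumours 1 to 5, against 1.09, 0.86, 0.95, 0.94 and 1.25 in adjacent samples 1 to 5. The co-receptors were thus near parity in adjacent tissue, and each tumour held at least 2.03 times as much Lrp5 as Lrp6. On the log2 scale the mean ratio was 1.18 ± 0.14 in tumours and 0.01 ± 0.20 in adjacent tissue (SD, n = 5 each), a difference of 1.17 (exact two-sided permutation p = 0.00794, adjusted over the 6 ratios 0.0238). The log2 ratio of Fzd5 to Fzd8 was 1.23 ± 0.45 in tumours and 2.44 ± 0.27 in adjacent tissue (SD, n = 5 each), a difference of -1.21 (exact permutation p = 0.00794, adjusted 0.0238), so Fzd5 fell by more than its relative Fzd8. In both cases 0.00794 is the smallest p that 5 samples against 5 can give.

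The other 4 ratios did not pass. Fzd1 over Fzd2 differed by -0.48 (exact permutation p = 0.0873, adjusted 0.175), but by -0.66 without tumour 2 (adjusted p = 0.0317). Fzd1 over Fzd7 had a log2 ratio of 2.80 in tumour 2 and of 0.40 to 1.33 in the other 4 tumours, against 1.09 to 1.45 in adjacent tissue. It differed by -0.17 between groups (exact permutation p = 0.778), and by -0.58 without tumour 2 (adjusted p = 0.0357). Fzd2 over Fzd7 differed by 0.31 (exact permutation p = 0.349, adjusted 0.419). Fzd3 over Fzd6 differed by -0.15 (exact permutation p = 0.302, adjusted 0.419), and its sign rests on the added value, at 0.68 with 0.1 FPKM added (adjusted p = 0.107) and -0.33 with 5 FPKM added (adjusted p = 0.0159).

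**Figure D3:**
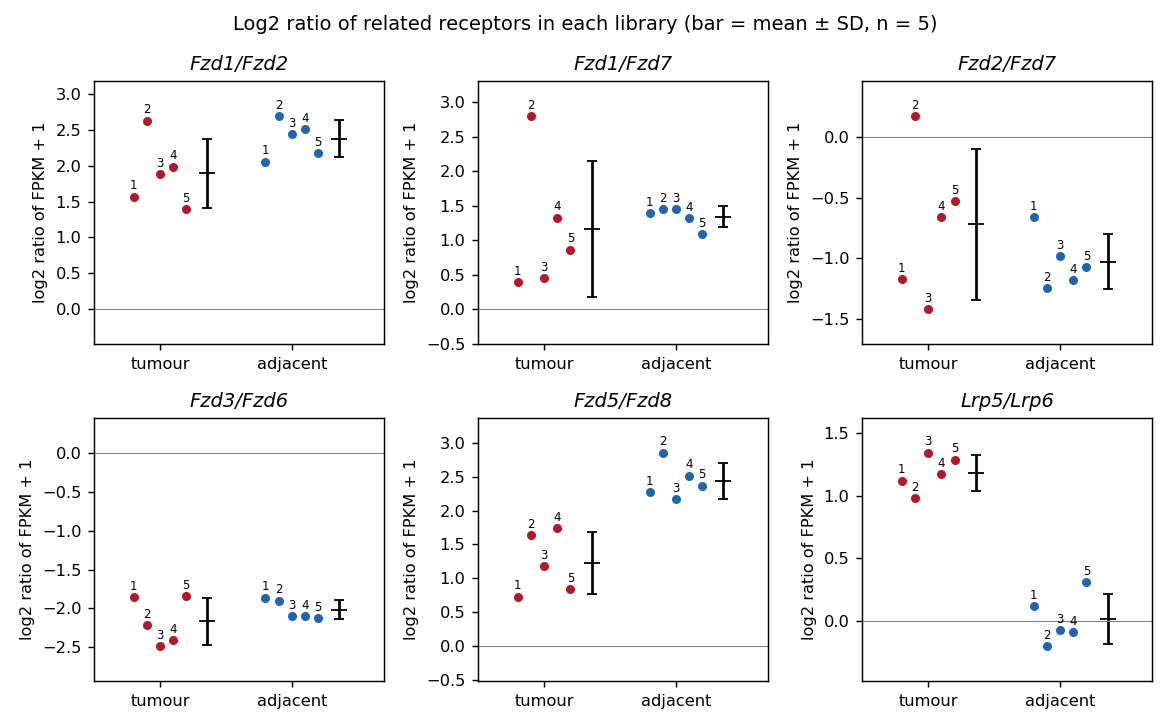
Log2 ratio of FPKM + 1 for the 6 pairs of related genes in every library, tumours left and adjacent samples right, with sample numbers and the mean ± SD as a bar. The groups are apart for Fzd5/Fzd8 and Lrp5/Lrp6, and tumour 2 lies at 2.80 for Fzd1/Fzd7, apart from the other tumours.

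The summed level of the 8 Frizzleds did not separate the groups, while its make-up did. The sum was 38.2, 70.6, 48.3, 47.9 and 50.7 FPKM in tumours 1 to 5, against 48.5, 51.7, 48.3, 44.0 and 47.7 FPKM in adjacent samples 1 to 5, so tumours 3, 4 and 5 lay within the adjacent range, tumour 1 below it and tumour 2 above it. Fzd5 made up 9.74% to 16.3% of this sum in tumours, against 39.1% to 49.9% in adjacent tissue. Fzd1 made up 27.2% to 53.7% in tumours, against 22.7% to 28.2% in adjacent tissue, with overlap. Fzd6 made up 10.2% to 20.9% in tumours, against 7.08% to 10.9% in adjacent tissue, with overlap at tumour 2 alone. Fzd7 made up 6.49% to 20.9% in tumours, against 7.79% to 9.50% in adjacent tissue. For Fzd7 the share of tumour 2 lay below every adjacent sample, and those of the other tumours lay above every adjacent sample. Fzd2 made up 6.48% to 10.2% in tumours, against 2.17% to 4.26% in adjacent tissue, with no overlap. Without Fzd5 the sum was 34.2 to 61.2 FPKM in tumours, against 23.1 to 29.4 FPKM in adjacent tissue. A share falls when another receptor rises, so these shares are given as a description.

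In order of mean level the tumours had Fzd1, Fzd6, Fzd7, Fzd5, Fzd2, Fzd4, Fzd8 and Fzd3, against Fzd5, Fzd1, Fzd6, Fzd7, Fzd8, Fzd4, Fzd2 and Fzd3 in adjacent tissue. Among tumours the ranges of Fzd6 (7.18 to 10.33 FPKM) and Fzd7 (4.58 to 10.08 FPKM) overlapped, as did those of Fzd7 and Fzd5 (4.03 to 9.42 FPKM). Among adjacent samples Fzd5, at 18.87 FPKM or more, stood above Fzd1, at 13.65 FPKM or less, whereas Fzd6 (3.66 to 5.18 FPKM) and Fzd7 (3.53 to 4.53 FPKM) overlapped. The change of rank was complete for the leading receptor: Fzd5 ranked first in 5 of 5 adjacent samples and Fzd1 in 5 of 5 tumours.

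**Figure D4:**
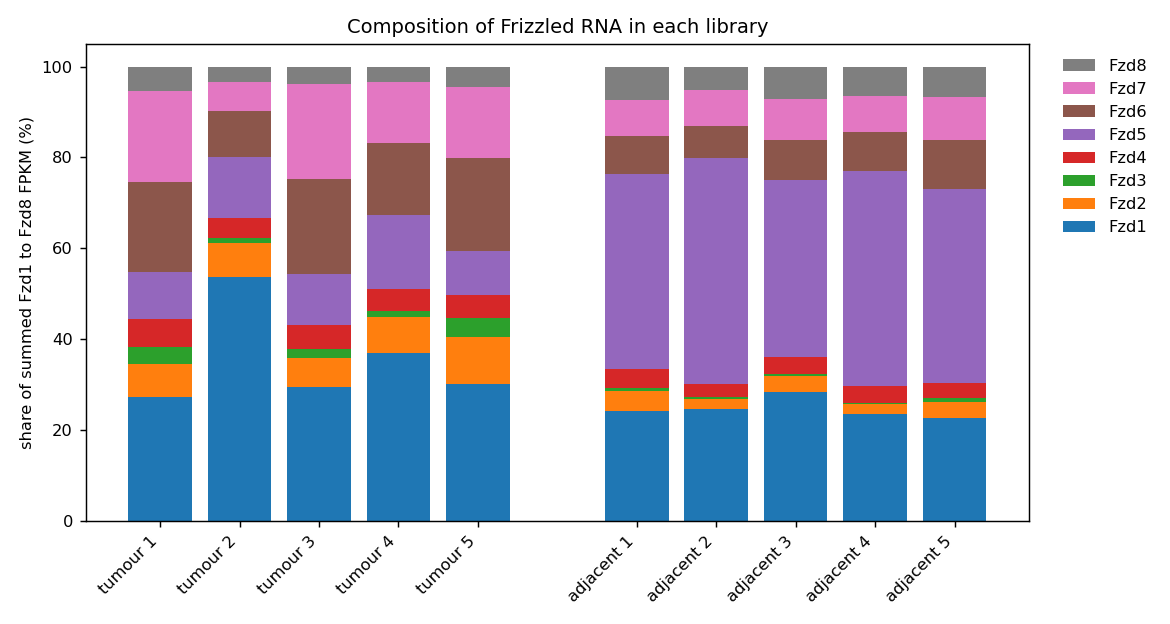
Share of each receptor in the summed Fzd1 to Fzd8 FPKM of every library, in %, tumours left and adjacent samples right. The Fzd5 segment is 9.74% to 16.3% in tumours and 39.1% to 49.9% in adjacent samples, and Fzd1 is widest in tumour 2 at 53.7%.

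Tumours differed among themselves, and tumour 2 most. It had the highest Fzd1, Fzd2, Fzd4, Fzd5 and Fzd8 and the lowest Fzd6, Fzd7, Lrp5 and Lrp6 of the 5 tumours. In this tumour the summed fibroblast markers were at 1188 FPKM and the endothelial ones at 113.6 FPKM, the highest of the tumours, against 680 to 979 and 75.5 to 108 FPKM in the other 4. Its surface colonocyte markers, at 931 FPKM, were also the highest, against 122 to 482 FPKM in the other 4, and its crypt base markers, at 289 FPKM, the lowest, against 344 to 422 FPKM. Its macrophage markers (1163 FPKM, against 710 to 796 FPKM in the other 4) and its markers of all epithelium (6801 FPKM, against 4458 to 5796 FPKM) were the highest as well. So were its lymphocyte markers (27.4 FPKM, against 5.98 to 12.3 FPKM) and its enteric neuron and glia markers (11.4 FPKM, against 1.26 to 3.79 FPKM). Its neutrophil markers (176 FPKM, in a tumour range of 171 to 458 FPKM) and smooth muscle markers (200 FPKM, in a tumour range of 136 to 226 FPKM) were not. The part of these cells in the receptor values was not tested. Tumour 4 had the second highest Fzd5, at 7.80 FPKM, and the second highest colonocyte sum, at 482 FPKM. Its Fzd8, at 1.63 FPKM, was the lowest of the tumours.

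The cell type markers moved between the groups as well. Their counts stand beside 57.2% of all tested genes that rose and 19.3% that fell. All 6 surface colonocyte markers fell, with summed levels of 122 to 931 FPKM in tumours, against 2881 to 4768 FPKM in adjacent tissue, which runs beside the fall of Fzd5 and Fzd8. Of 9 markers of all epithelium 8 fell and 1 rose (sums of 4458 to 6801 FPKM in tumours, against 7911 to 9585 FPKM), a smaller difference, and all 8 crypt base markers rose (289 to 422 FPKM in tumours, against 77.0 to 155 FPKM). Fzd2, Fzd4, Fzd6, Fzd7 and Lrp5 rose with the deposited scaling. Beside them, 10 of 11 tested fibroblast markers rose (680 to 1188 FPKM in tumours, against 110 to 268 FPKM), as did 10 of 10 endothelial markers (75.5 to 114 FPKM, against 18.8 to 41.6 FPKM). So did 4 of 8 smooth muscle markers (136 to 226 FPKM, against 45.3 to 131 FPKM) and 8 of 9 macrophage markers (710 to 1163 FPKM, against 143 to 366 FPKM). No marker of these lists was at 0 throughout a group. Of 6 neutrophil markers tested 5 rose and 1, Ly6g, fell. Ly6g was at 31.5 ± 24.3 FPKM in tumours, against 169 ± 66.9 FPKM in adjacent tissue (SD, n = 5 each), the highest adjacent mean of the list. Mpo, the granule peroxidase of neutrophils, was listed at 0 in every adjacent sample. The list, with Ly6g, summed to 171 to 458 FPKM in tumours, against 103 to 349 FPKM in adjacent tissue. Of 6 lymphocyte markers tested 2 fell (5.98 to 27.4 FPKM, against 9.26 to 49.7 FPKM), and Ret, the only enteric neuron and glia marker of 6 that entered the test, did not pass (list sums of 1.26 to 11.4 FPKM in tumours, against 2.00 to 6.44 FPKM). The part of these cells in the receptor changes was not tested.

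Other genes that act on these receptors also differed between tumours and adjacent tissue. With the deposited scaling the counts for these and the following lists stand beside 57.2% of all tested genes that rose and 19.3% that fell. Of the 13016 tested genes 4486 rose and 4329 fell with library medians subtracted. After quantile normalization 4759 rose and 3934 fell. RNF43 and ZNRF3, which mark Frizzleds for removal from the surface, and the R-spondin receptors LGR4, LGR5 and LGR6, which block that removal, form the first list. Of its 9 genes 5 were tested, 4 rose and 1 fell, with a median log2 change of 1.93. Rnf43 had 87.1 ± 23.6 FPKM in tumours, against 20.0 ± 6.96 FPKM in adjacent tissue (SD, n = 5 each), a log2 change of 2.08 (limma adjusted p = 5.20e-05), and Lgr5 had 25.0 ± 1.57 FPKM in tumours, against 5.74 ± 3.73 FPKM (limma adjusted p = 9.88e-05). Lgr4, by mean level the most abundant of the 3 R-spondin receptors in both groups, fell to 34.0 ± 10.6 FPKM in tumours, against 57.9 ± 6.28 FPKM in adjacent tissue (SD, n = 5 each). Its log2 change was -0.81 (limma adjusted p = 0.00532), and -0.60 without tumour 1 (limma adjusted p = 0.0017). The 4 R-spondin genes were below the filter.

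Of 13 secreted antagonists 6 were tested and all 6 rose, with a median of 2.54, and 5 rose with quantile normalization. Wif1, which binds Wnt proteins, was at 275 ± 67.7 FPKM in tumours, against 41.6 ± 20.9 FPKM (SD, n = 5 each; log2 change 2.80, limma adjusted p = 3.93e-05), and Dkk2, which binds LRP5 and LRP6, rose by 2.65 (SE 0.38). Of 6 genes that fold or regulate the co-receptors 4 were tested: Kremen1 rose by 0.72 (SE 0.07), Lrp4 by 0.71 (SE 0.18, lost with quantile normalization, adjusted p = 0.078) and Mesdc2 also rose, while Kremen2, like Kremen1 a receptor for Dickkopf proteins, fell by 1.06 (SE 0.18). Their median was 0.65, and 2 rose with quantile normalization.

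Of 7 other Wnt receptors 6 were tested, 4 rose and 1 fell, with a median of 0.99. The pseudokinase gene Ptk7 rose by 2.16 (SE 0.25), and Ror1, a receptor tyrosine kinase, fell by 0.62 (SE 0.13). Fzd10 was at 4.70 ± 1.66 FPKM in tumours, against 0.938 ± 0.48 FPKM in adjacent tissue (SD, n = 5 each), which on the log2 scale is a rise of 1.54 (SE 0.23, limma adjusted p = 0.000139). Its rise was larger than that of any of Fzd1 to Fzd8 on this scale, a difference that was not tested. Fzd9, its relative, was at 1.18 ± 0.90 FPKM in tumours, against 1.27 ± 0.42 FPKM in adjacent tissue (SD, n = 5 each), with a log2 change of -0.12 (limma adjusted p = 0.647), and passed with quantile normalization (-0.51, adjusted p = 0.0472). Of 4 partners of Fzd4, Tspan12, the tetraspanin of the Norrin receptor, and Adgra2, which with RECK passes WNT7 to Frizzleds, were tested and rose by 1.54 (SE 0.23) and 1.16 (SE 0.17).

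Of 8 planar cell polarity genes 7 were tested and 6 rose, with a median of 1.01, and the same number rose under both other scalings; Vangl2 rose by 2.12 (SE 0.24) and Prickle1 by 1.07 (SE 0.14). Of 11 cytoplasmic transducers 10 rose, with a median of 0.45. The scaling mattered here: after subtraction of library medians 3 rose and 1 fell, and after quantile normalization 7 rose and 1 fell. Dvl2 and Dvl3, which encode Dishevelled proteins, rose by 0.87 (SE 0.15) and 0.60 (SE 0.12). Of 19 Wnt ligands 8 were tested and 7 rose (median change 1.08), and 5 rose under each of the other scalings; Wnt10a rose by 2.81 (SE 0.38), and Wnt5a was at 20.3 ± 2.40 FPKM in tumours, against 3.13 ± 1.55 FPKM in adjacent tissue (SD, n = 5 each; log2 change 2.45, limma adjusted p = 2.68e-05).

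**Figure D5:**
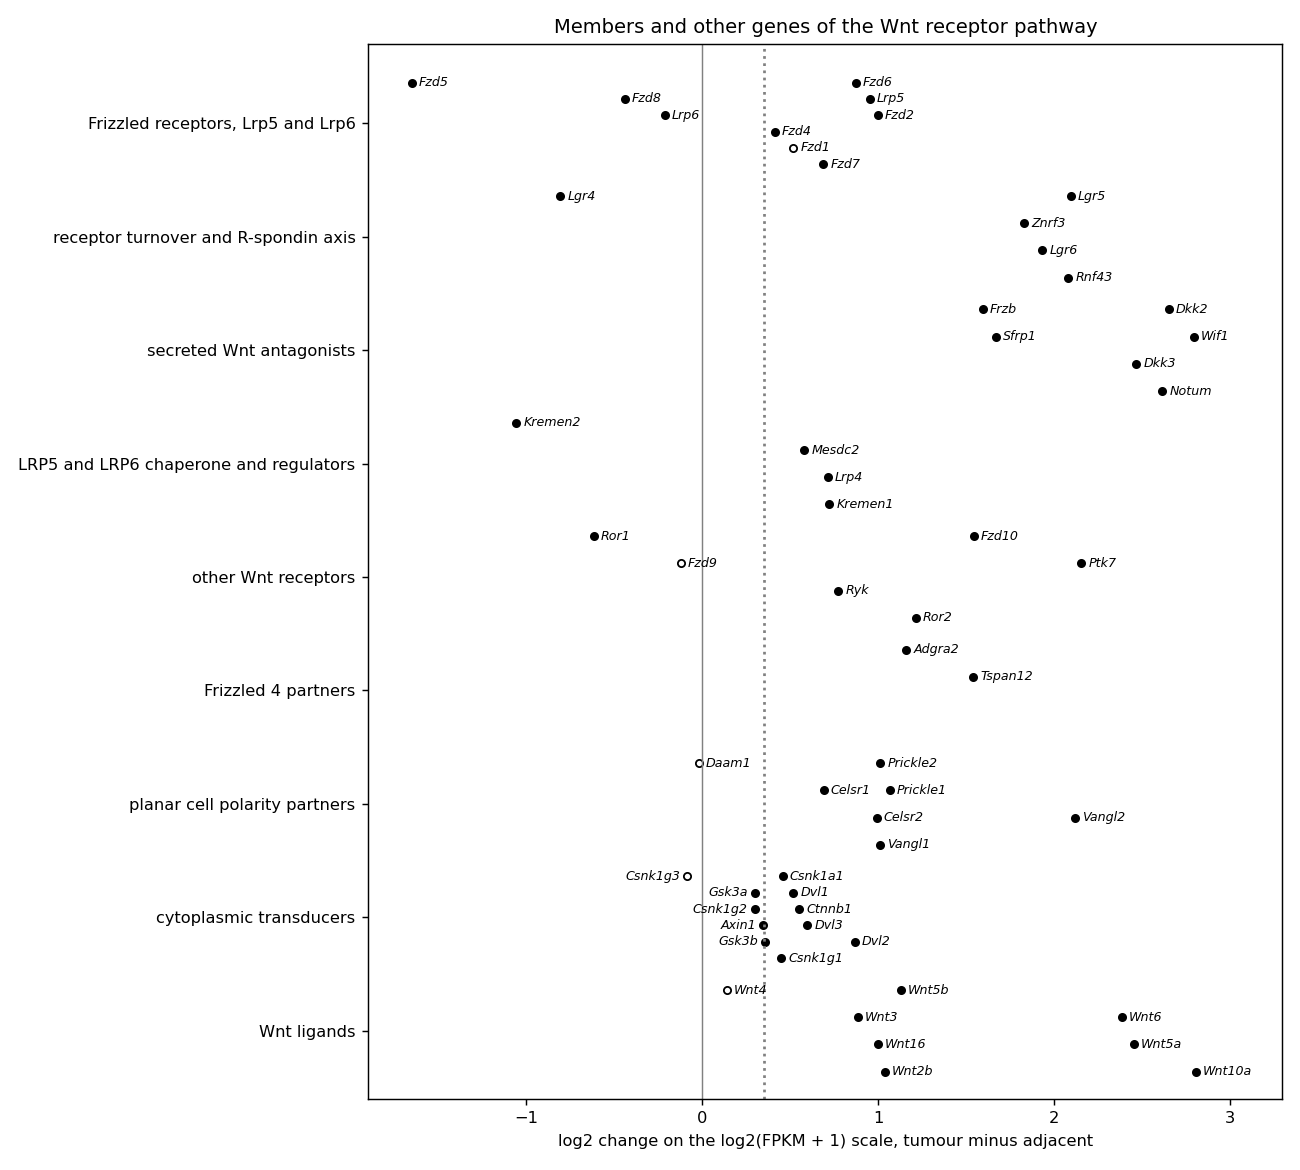
Log2 change, tumour minus adjacent, of every tested gene of the receptor set and of 8 other lists of the Wnt receptor pathway; filled points passed an adjusted p of 0.05 and open points did not, and the dotted line is the median of all tested genes, 0.35. Antagonists reach 2.80 and ligands 2.81, while the receptors lie between -1.65 and 1.00.

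Fzd5 was the only member past the threshold with a change of at least 1 on the log2 scale before rounding, Fzd2 falling just short of it. The genes whose profile lay nearest to that of Fzd5 over the 10 libraries, each centred on its own mean, were Fam110c and Ipmk, an inositol phosphate kinase. They differed from Fzd5 by a mean of 0.08 and 0.10 on the log2 scale. Fam110c was at 5.87 ± 1.99 FPKM in tumours, against 20.1 ± 1.73 FPKM in adjacent tissue, and Ipmk at 16.6 ± 6.05 FPKM, against 53.2 ± 7.16 FPKM (SD, n = 5 each).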

How the data were processed

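Polyadenylated RNA was sequenced from 5 tumours and 5 adjacent samples on TruSeq RNA v2 libraries, per the labels' protocols. The authors deposited 1 table of FPKM per gene symbol; the submitters' processing notes name the build mm10 and, in alphabetical order, Cufflinks 2.2.1, DESeq2 1.14.1, edgeR 3.16.5, GATK, RSEM 1.2.15, Salmon 0.8.2 and TopHat2 2.1.0; the sources used here do not say which of them made the FPKM values. One line of text in place of values was left out. Totals were 462009 to 484712 FPKM per library, and 11981 to 13171 genes reached 1 FPKM. Steps between low FPKM values of genes with 1 annotated transcript gave a rough depth of 21700000 to 27100000 fragments, with 73.2% to 80.7% of those values within 0.2 of a whole fragment. At least 17741 genes differed between any pair of libraries.

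limma 3.58.1 (R 4.3.3) took log2(FPKM + 1) as its input and tissue type as its single factor, with trend and robust empirical Bayes, and was tested on simulated data first. The added 1 makes changes of low genes look smaller than they are. Alternatives were other pseudocounts (0.1 and 5), filters and scalings, a replicate block, and left-out libraries. The members, gene lists and tests were chosen with earlier results of these data known. Named pathway genes are, per list, up to 2 largest rises and 2 largest falls past the threshold; Fzd9 was named after its values were seen. Coordinates come from GENCODE M21 (GRCm38), promoters from RefSeq (GRCm38.p6).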

Additional observations from a re-analysis of the deposited data

Results flagged for a closer look

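Among 34 groups of 5 values examined, 2 had a sample far from the others, and chance flags about 1 group in 20. Fzd1 in tumour 2 was at 37.88 FPKM, and the next highest tumour was at 17.74 FPKM. Fzd5 in adjacent sample 2 was at 25.78 FPKM, and the next highest adjacent sample was at 20.85 FPKM; without it the log2 change of Fzd5 was -1.58 (limma adjusted p = 0.00014).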

How the results depend on the processing

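Over all tested genes 7442 rose and 2509 fell, but 4486 and 4329 did with library medians subtracted and 4759 and 3934 with quantile normalization. Under the last, 3 members rose and the change of Fzd4 was -0.081. Without single libraries 7051 to 7583 genes and 5 to 6 members rose, and 2321 to 2609 genes and 2 to 3 members fell. Fzd2, Fzd5, Fzd6, Fzd8 and Lrp5 kept their direction and their call in all 19 alternatives run.

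The labels do not settle if like-numbered samples come from 1 animal, and the numbers were not taken as pairs: deviations of like-numbered samples from the group means correlated at 0.02 to 0.42, over 0.1 in 3 of 5 pairs, and 2 of 5 tumours correlated best with their own number. With the replicate block 5 members rose and 3 fell, among 7534 and 2533 genes, and no member's call changed. For the ratios Fzd5/Fzd8 (-1.21) and Lrp5/Lrp6 (1.17) an exact sign-flip test over the numbers gave p = 0.0625, the smallest it can give, adjusted 0.125.

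Among the ratios, Fzd1/Fzd2 ranged from -0.66 to -0.36 without single libraries, and was -0.82 with 0.1 FPKM added and -0.76 without tumours 2 and 4, both past the threshold (adjusted p = 0.0476 and 0.0268). Fzd1/Fzd7 ranged from -0.58 to 0.020 without single libraries and was -0.77 without tumours 2 and 4 (adjusted p = 0.0268), where Fzd2/Fzd7 was -0.013. Fzd3/Fzd6 was 0.68 and -0.33 with 0.1 and 5 FPKM added. The cause of these changes was not tested. The share of Fzd5, an alternative set chosen after seeing the data, stayed at 11.0% to 12.9% in tumours and 42.5% to 45.7% in adjacent tissue, with Fzd9 and Fzd10 added or without single libraries. Depth limits the precision of low values, such as the 0.11 to 0.42 FPKM of Fzd3 in adjacent tissue.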
